A study of Mus musculus with 8 samples.

Results

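The genes described here encode the machinery of oxidative phosphorylation: the subunits of the respiratory complexes I to IV, those of ATP synthase (complex V), and the assembly factors of complex I that carry the Ndufaf names. They were taken from the protein-coding genes of a mouse count table by symbol: those that begin with Nduf, Uqcr, Atp5 or Cox4 to Cox8, the genes Sdha, Sdhb, Sdhc and Sdhd, and the mitochondrially encoded genes mt-Nd, mt-Co, mt-Cytb and mt-Atp. The rule found 107 of 54532 genes, 94 of them nuclear and 13 mitochondrial. Complex I had 43 members, its assembly factors 8, complex II 4, complex III 9, complex IV 23 and complex V 20. A filter on low counts left 97 of them among 12234 genes tested, 85 nuclear and 12 mitochondrial. The 10 untested members were Cox4i2, Cox6a2, Cox6b2, Cox7a1, Cox7b2, Cox8b, Cox8c, Ndufa4l2, mt-Atp8 and a second entry named Atp5o.

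Oxidative phosphorylation passes electrons from NADH through complex I, or from succinate through complex II, by way of coenzyme Q to complex III, and from there by way of cytochrome c to complex IV, which reduces oxygen. Complexes I, III and IV pump protons across the inner mitochondrial membrane, and complex V uses the gradient to make ATP. Complex II is encoded in the nucleus alone, while the other complexes have subunits from both genomes. In mouse macrophages, lipopolysaccharide (LPS) is known to shift metabolism towards glycolysis, with succinate and itaconate building up, and interleukin 4 (IL-4) is known for a state that relies on oxidative metabolism.

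RNA was sequenced from bone marrow-derived macrophages, primary cells grown from mouse bone marrow, in 4 groups of 2 libraries each, numbered 1 and 3 in the labels. The group called IL-4 then LPS was given IL-4 at 20 ng/ml for 24 h, washed, and then given LPS at 100 ng/ml for 4 h. The LPS group had LPS at 100 ng/ml for 4 h, the IL-4 group had IL-4 at 20 ng/ml for 24 h, and the control group had neither. The sources used here give no strain, genotype or age. They do not say how many animals or cultures gave the libraries of a group. In every group library 1 had Xist reads and no Y-linked reads and library 3 the reverse, so the libraries of a group came from mice of different sex, and p-values measure the spread between these libraries. Each library held 7924932 to 9431852 counted reads, of which nuclear members took 0.405% to 0.661% and mitochondrial members 1.03% to 1.55%. All 7 macrophage markers examined had reads, summing to 11607 to 24592 CPM (counts scaled to a common library total), while the lists for 6 other lineages summed to at most 11.96 CPM in any library, the highest being dendritic cell genes. That list moved with LPS, averaging 9.68 with IL-4 then LPS, 8.22 with LPS, 1.48 with IL-4 and 0.909 in controls, and the macrophage list was lower with IL-4, averaging 14126, 19571, 14608 and 21160.2 CPM in the same groups. Their part in the results was not tested.

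Levels are given as CPM after scaling between libraries by the trimmed mean of M values (TMM), which takes most genes to be alike between libraries. This choice bears on every comparison with LPS. The TMM factors were 0.786 to 0.866 in the 4 libraries given LPS and 1.17 to 1.25 in the 4 others. With libraries scaled by their size only, all genes tested had a median change of -0.56 for IL-4 then LPS against IL-4 and -0.62 for LPS against control, on the log2 scale, and upper-quartile factors gave -0.28 and -0.28. A rise or fall with LPS below is therefore one relative to the median gene, not an amount per cell. Fewer cells of a type and less RNA per cell cannot be told apart in such bulk samples.

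Several mitochondrial members share their sequence with copies in the nuclear genome. A stretch on chromosome 1 is annotated as a row of pseudogenes of mitochondrial genes. All 681 bases of mt-Co2, a core subunit of complex IV, are the same as in the pseudogene Gm28661 (0 differences, GENCODE M21, mm10), so a read from either place matches both. The 60 bases below, taken from both genes to make that identity visible, lie at chrMT:7113-7172 on the plus strand and chr1:24615406-24615465 on the minus strand, with no capitals since no base differs.
mt-Co2: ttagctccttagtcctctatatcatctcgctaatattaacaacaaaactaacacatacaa
Gm28661: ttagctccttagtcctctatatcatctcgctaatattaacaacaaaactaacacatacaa

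Each member's sequence was cut into all its runs of 50 bases (50-mers), and these were looked for in other annotated transcripts. The share found elsewhere was 100.00% for mt-Co2, 99.9% for mt-Co3, 99.5% for mt-Atp6, 98.8% for mt-Nd4l and 97.99% for mt-Nd3. It was 62.2% for mt-Nd4, 51.1% for mt-Co1, and at most 8.19% for mt-Nd2, mt-Nd5, mt-Nd1, mt-Nd6 and mt-Cytb. Levels per length, in RPKM (reads scaled by gene length and by library total) averaged over the 8 libraries, separated the same genes. They were 38.4 RPKM for mt-Co2, 21.6 for mt-Atp6, 16.4 for mt-Co3, 7.27 for mt-Nd4l and 7.13 for mt-Nd3. The 7 others had 489 RPKM (mt-Nd4) to 4398 RPKM (mt-Co1), with 1616 for mt-Cytb and 1380.3 for mt-Nd1. Over the 8 libraries 1343 reads were counted to Gm28661 and 1836 to mt-Co2. The counts of the 5 low genes are uncertain, and the part of the shared sequence in their levels was not tested. The gene mt-Atp8 had 12 reads in all.

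**Figure D1:**
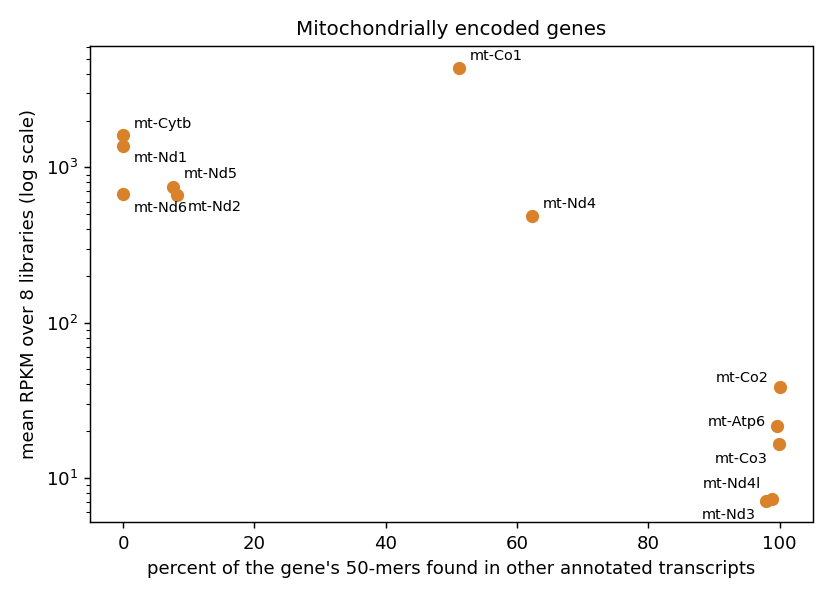
Mean level per length over 8 libraries (RPKM, log scale) of the 12 tested mitochondrially encoded genes against the percent of their 50-mers found in other annotated transcripts. The 5 genes at 97.99% or more lie at 7.13 to 38.4 RPKM, and the 7 others at 489 to 4398 RPKM.

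Of the 85 nuclear members tested, 65 had under 10% of their 50-mers elsewhere and 1, the assembly factor Ndufaf2, had over 50%. Exons of 43 of the 107 members overlap those of another gene, and the sources used here do not say whether the counting used strand, so reads of such a partner cannot be told apart. Levels per length use the gene length deposited with the counts, which is long for some small subunits (5628 bases for Ndufb2 and 3567 for Cox6c), so their RPKM may be too low.

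Among nuclear members, levels per length differed by complex. The median over tested members was 61.1 RPKM for complex IV, 44.6 for complex II, 36.7 for complex III, 33.1 for complex V, 18.2 for complex I and 2.41 for the assembly factors. Complex IV ran from 16.9 RPKM for Cox6c to 200.02 RPKM for Cox8a, both small subunits. Complex V ran from 1.19 RPKM for Atp5s, known as coupling factor B and not a core subunit, to 158 RPKM for Atp5a1, the alpha subunit of the catalytic head. Complex I ran from 0.803 RPKM for Ndufb2 to 86.7 RPKM for Ndufa2, both accessory subunits, and complex III from 29.1 RPKM for the core protein Uqcrc2 to 80.6 RPKM for the small subunit Uqcr10. In complex II the membrane anchors Sdhc and Sdhd marked the ends, at 32.6 and 66.01 RPKM.

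Subunits with tissue-specific isoforms were counted mainly in the widely expressed form. Cox4i1 had 156 RPKM, and its alternative Cox4i2 had no read. Cox6a1 had 177 RPKM against 1.36 for the muscle form Cox6a2, and Cox6b1 had 132 RPKM against 0.124 for the testis form Cox6b2. Cox7a2 had 63.4 RPKM and Cox7a2l, a related protein that joins complexes III and IV into supercomplexes, 138, against 1.04 for the muscle form Cox7a1. Cox8a had 200.02 RPKM against 0.0630 for Cox8b, while Cox8c, Cox7b2 and Ndufa4l2 had no read. A count of 0 over the 8 libraries allows up to 0.0420 CPM (3 counts, counting error only), so these forms were not detectable at this depth. Of the 3 genes that encode the same mature subunit c of ATP synthase, Atp5g2 had 51.6 RPKM, Atp5g3 45.2 and Atp5g1 6.39. Their annotated sequence differed in extent, with 1622, 2224 and 4881 different 50-mers in that order. Of those of Atp5g2, 38.3% were also found in other transcripts. The part of both in these levels was not tested.

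Promoters were matched in RefSeq (GRCm38.p6, 250 bases before to 50 after the start) for 70 of the 85 tested nuclear members, and 4 motifs were searched on both strands. The core site of NRF1 (GCATGCGC), a known regulator of respiratory genes, was in 17.14% of them, against 6.34% of 8887 promoters of tested protein-coding genes and 3.05% of all 27025. The ETS site that GABP binds (CCGGAAG) was in 25.71%, against 21.45% and 9.93%. A YY1 site (AAGATGGC) was in 14.29%, against 5.67% and 3.19%, and an ERR site (TCAAGGTCA) in 2.86%, against 0.33% and 0.47%. Of the 70 promoters, these shares are 12 for NRF1, 18 for ETS, 10 for YY1 and only 2 for ERR. The motifs share no match position in the promoters shown, although NRF1 cores on opposite strands overlap each other. Those of Cox6a1, Uqcr11, Atp5k and Sdhb are shown because they are the members that passed a test described below, with or without the replicate block, and whose promoter holds both an NRF1 core and an ETS site, in capitals. The first 3 were called as rises and Sdhb, the iron-sulfur subunit of complex II, as a fall. That of Cox7a2, a small subunit of complex IV that rose with LPS, is shown beside them and holds none of the 4 motifs.
Cox6a1 promoter: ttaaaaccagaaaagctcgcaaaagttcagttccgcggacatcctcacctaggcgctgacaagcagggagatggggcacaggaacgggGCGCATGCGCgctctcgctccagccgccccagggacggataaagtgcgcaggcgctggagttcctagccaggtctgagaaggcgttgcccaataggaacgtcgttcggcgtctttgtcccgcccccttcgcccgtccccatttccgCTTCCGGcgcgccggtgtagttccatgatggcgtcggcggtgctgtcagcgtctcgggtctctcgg
Uqcr11 promoter: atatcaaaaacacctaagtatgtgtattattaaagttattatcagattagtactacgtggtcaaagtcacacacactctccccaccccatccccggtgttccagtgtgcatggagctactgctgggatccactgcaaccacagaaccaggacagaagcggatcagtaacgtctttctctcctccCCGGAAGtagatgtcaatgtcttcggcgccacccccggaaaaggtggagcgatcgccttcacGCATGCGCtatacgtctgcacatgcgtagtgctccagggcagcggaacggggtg
Atp5k promoter: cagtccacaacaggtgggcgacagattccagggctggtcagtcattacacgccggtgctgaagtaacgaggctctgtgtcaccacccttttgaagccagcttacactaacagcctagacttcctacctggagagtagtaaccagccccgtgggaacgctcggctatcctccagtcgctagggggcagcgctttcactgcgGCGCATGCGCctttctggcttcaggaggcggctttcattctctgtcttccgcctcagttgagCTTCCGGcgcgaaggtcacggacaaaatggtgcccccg
Sdhb promoter: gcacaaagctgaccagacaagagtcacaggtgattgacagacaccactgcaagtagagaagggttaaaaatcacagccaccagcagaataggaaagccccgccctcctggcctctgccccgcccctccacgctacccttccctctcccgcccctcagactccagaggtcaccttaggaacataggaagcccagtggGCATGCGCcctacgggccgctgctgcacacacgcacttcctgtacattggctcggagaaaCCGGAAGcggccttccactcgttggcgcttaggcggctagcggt
Cox7a2 promoter: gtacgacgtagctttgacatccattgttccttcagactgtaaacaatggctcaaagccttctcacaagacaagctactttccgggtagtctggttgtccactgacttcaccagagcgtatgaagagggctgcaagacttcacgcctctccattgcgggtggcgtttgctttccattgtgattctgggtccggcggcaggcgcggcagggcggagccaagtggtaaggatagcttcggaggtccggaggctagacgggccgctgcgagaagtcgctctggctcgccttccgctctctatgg

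In GRCm38.p6 they lie at chr5:115348909-115349208 for Cox6a1, chr10:80406772-80407071 for Uqcr11, chr5:108434350-108434649 for Atp5k and chr9:79759804-79760103 for Cox7a2, all on the minus strand, and at chr4:140961021-140961320 on the plus strand for Sdhb. The ETS match is at bases 235 to 241 of the Cox6a1 sequence, 185 to 191 of Uqcr11, 263 to 269 of Atp5k and 257 to 263 of Sdhb. The NRF1 cores are at bases 89 to 98 of Cox6a1, 247 to 254 of Uqcr11, 201 to 210 of Atp5k and 197 to 204 of Sdhb. A match describes the letters and says nothing of binding in these cells.

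The first comparison asked what LPS did in cells not given IL-4. A few members rose, each by less than 1 log2 unit, among them a pair of small subunits of complex IV. Cox7a2 had 63.8 and 66.3 CPM in LPS libraries, against 36.95 and 44.2 in control libraries. Cox6c had 59.1 and 68.9 in LPS libraries, against 38.9 and 41.2 in control libraries. Both LPS libraries lay above both controls for each gene. The log2 fold changes were 0.68 ± 0.14 for Cox7a2 and 0.68 ± 0.15 for Cox6c (± standard error; adjusted p = 0.00573 and 0.00876, edgeR quasi-likelihood test). Uqcrfs1, the Rieske iron-sulfur protein of complex III, had 102 and 108 in LPS libraries, against 75.3 and 74.4 in control libraries, without overlap. Its log2 fold change was 0.49 ± 0.14 (adjusted p = 0.0243 in edgeR), and -0.12 with library size alone. Atp5k, subunit e of ATP synthase, had 21.98 and 19.6 in LPS libraries, against 11.1 and 15.1 in control libraries, again without overlap (0.67 ± 0.23, adjusted p = 0.0492 in edgeR). DESeq2 did not call Atp5k higher. With each library left out in turn, Uqcrfs1 ran from 0.44 to 0.53 and Atp5k from 0.40 to 0.87. Leaving out libraries other than control library 1 also cost both genes the call. Without control library 1 none of these 4 rises passed, with adjusted p of 0.064 to 0.293 in edgeR.

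Atp5s went the other way. It had 1.40 and 0.967 CPM in LPS libraries, against 2.51 and 3.96 in control libraries, without overlap, and fell by 1.44 on the log2 scale (standard error 0.44, adjusted p = 0.0346 in edgeR). It is a little-counted member, with 193 reads over the 8 libraries. Its adjusted p was 0.0623 in DESeq2, and it did not pass in 4 of 8 fits that left out a library in turn (adjusted p up to 0.158 in edgeR, without LPS library 3).

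In all, 4 of 97 members rose and 1 fell with LPS, while of all genes 21.8% rose and 18.6% fell. With the replicate number as a block in the fit, 18 members rose and 3 fell, against 28.2% and 25.5% of all genes. The 14 added rises were those of Ndufs6, Ndufs4 and Ndufa2 of complex I, Uqcrq and Uqcr11 of complex III, Cox8a, Cox6a1, Cox5a, Cox7c, Cox4i1 and Cox5b of complex IV, and Atp5e, Atp5b and Atp5a1 of complex V. Their log2 fold changes in that fit ran from 0.25 for Atp5a1 to 0.78 for Ndufs6, and the added falls were those of Ndufaf7 and Sdhb. LPS libraries lay wholly above the controls for 33 members, against 35.9% of all genes, and wholly below for 8, against 36.7%.

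The complexes differed in where their members lay relative to the median gene. All 15 tested members of complex IV and all 9 of complex III had a log2 fold change above the median of all genes (-0.01), with medians of 0.38 and 0.24. The count was 15 of 18 for complex V (median 0.23), 27 of 43 for complex I (0.05), 2 of 4 for complex II (-0.03) and 3 of 8 for the assembly factors (-0.18). A change of scaling moves all genes and their median nearly alike, so it could hardly alter these counts and does not test the pattern. The counts were the same with upper-quartile factors and with library size alone. The medians themselves became 0.11 and -0.22 for complex IV and -0.02 and -0.36 for complex III. Control library 1 weighed on these values. The medians of complex V and complex I became 0.04 and -0.05 without it. Their counts above the median gene were 12 of 18 and 22 of 43, and that of the assembly factors 1 of 8, without control library 1. Without it, 14 of 15 members of complex IV, 7 of 9 of complex III and 0 of 4 of complex II lay above the median gene, the median of the nuclear members was -0.03 rather than 0.16, and 0 members rose in edgeR, with 1847 of all 12234 genes. Without control library 3 that median was 0.25 and 7 members rose, with 2049 of all genes, against 2663 of all genes with both.

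**Figure D2:**
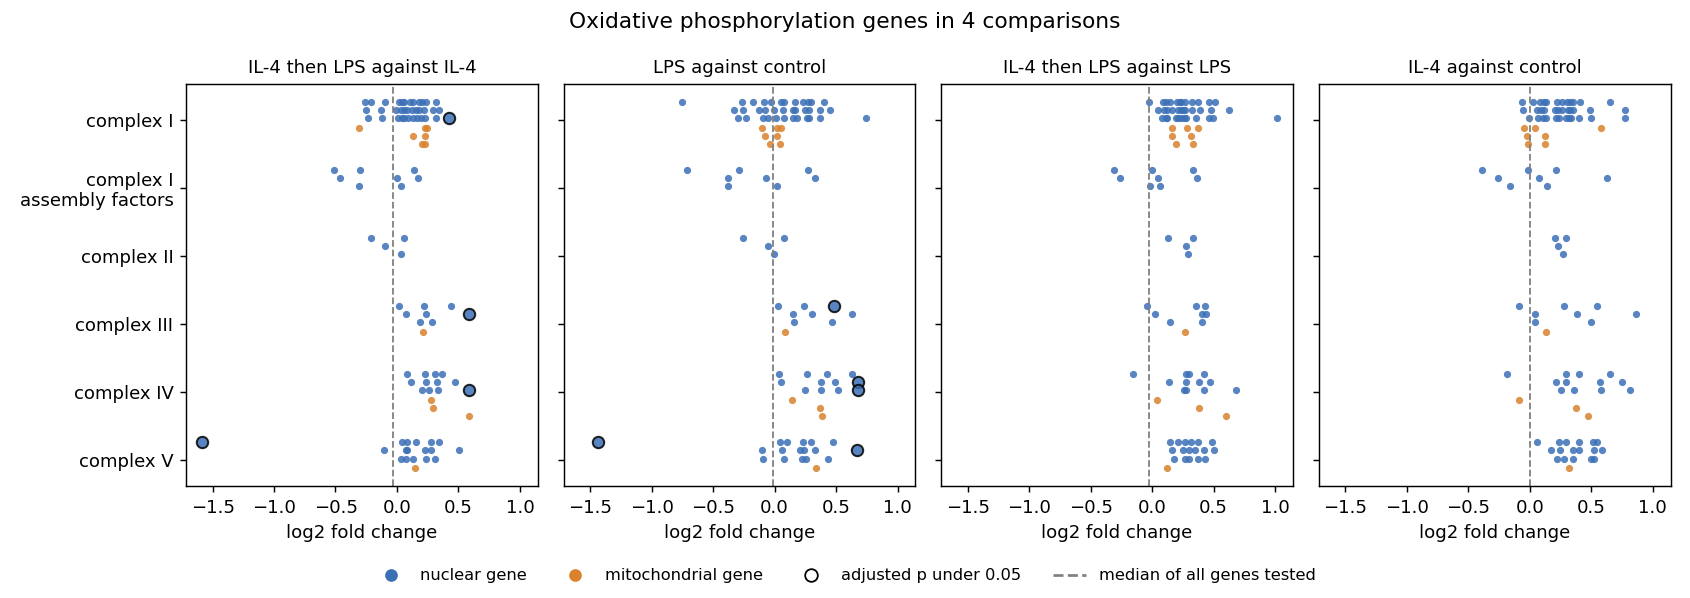
Log2 fold change of each of the 97 tested members by complex in 4 comparisons (TMM scaling), nuclear genes in blue and mitochondrial genes in orange, outlined where adjusted p was under 0.05, with a dashed line at the median of all genes tested. Complexes III and IV lie to the right of the line in both LPS comparisons, though their medians fall below 0 with library size alone (-0.23 and -0.22 for complex IV), and no point is outlined in the IL-4 comparisons.

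Within a library, a ratio of reads does not depend on the scaling. The ratio of complex IV to complex I reads over nuclear members was 1.02 and 1.14 with IL-4 then LPS, 1.08 and 1.08 with LPS, 0.965 and 0.958 with IL-4, and 0.867 and 0.900 in controls. The 4 libraries given LPS were above the 4 others. The ratio of mitochondrial to nuclear reads was 2.34 and 2.31 with IL-4 then LPS, 2.53 and 2.61 with LPS, 2.18 and 2.29 with IL-4, and 3.04 and 2.55 in controls. The 4 libraries given IL-4 had the lowest of these, and the controls differed more from each other than any other pair. Neither ratio was tested.

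**Figure D3:**
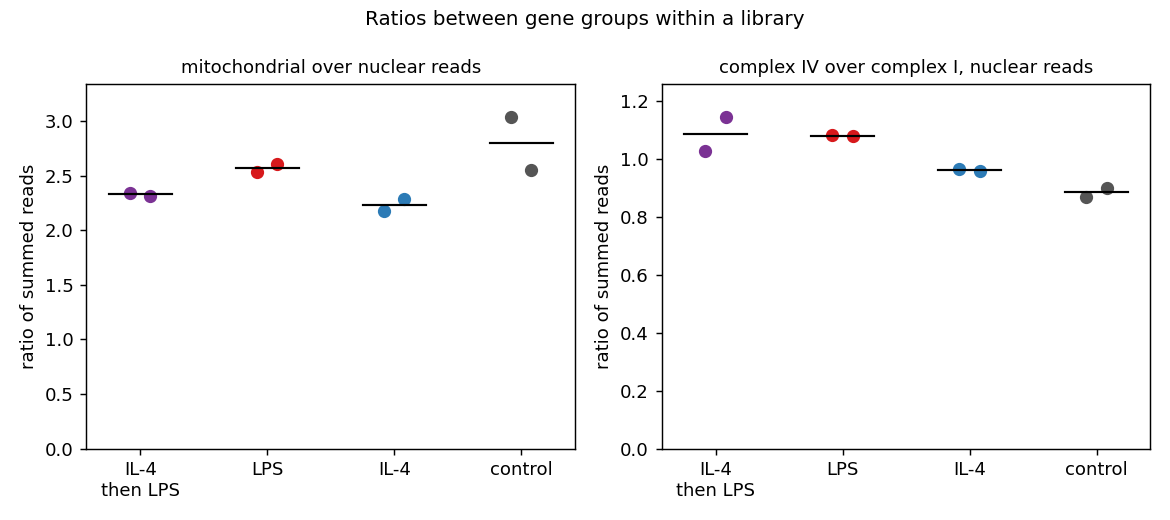
Ratio of summed reads of mitochondrially encoded to nuclear members (left) and of nuclear complex IV to nuclear complex I members (right) in each of the 8 libraries, with a line at the mean of each group. Every library given LPS lies above every other in the right panel.

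The second comparison asked what LPS did after IL-4. Uqcrfs1 had 104 and 128 CPM with IL-4 then LPS, against 74.6 and 79.8 with IL-4 alone. Cox7a2 had 78.2 and 82.1 with IL-4 then LPS, against 50.3 and 56.6 with IL-4 alone. Ndufs3, a core subunit of the peripheral arm of complex I, had 45.9 and 43.2 with IL-4 then LPS, against 30.8 and 35.8 with IL-4 alone. In each case both libraries given LPS lay above both others. The log2 fold changes were 0.59 ± 0.14 for Uqcrfs1, 0.58 ± 0.14 for Cox7a2 and 0.42 ± 0.13 for Ndufs3 (adjusted p = 0.0114, 0.0114 and 0.0403 in edgeR). DESeq2 did not call Ndufs3 higher. The call of Ndufs3 was lost in every fit that left out 1 library (adjusted p = 0.0532 to 0.232 in edgeR), and its value was -0.10 with library size alone. Atp5s had 1.46 and 1.17 CPM with IL-4 then LPS, against 4.37 and 3.54 with IL-4 alone, without overlap. It fell by 1.59 on the log2 scale (standard error 0.43, adjusted p = 0.0222 in edgeR), and the call was lost when any of the 4 libraries compared was left out.

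In this comparison 3 members rose, against 20.7% of all genes, and 1 fell, against 18.6%. With the replicate block 10 rose and 1 fell, against 26% and 25.8% of all genes, the added rises being those of Cox5a, Uqcrq, Cox6c, Atp5b, Cox7c, Atp5f1 and Uqcrc1. Libraries given LPS lay wholly above the others for 46 members (34.8% of all genes) and wholly below for 13 (36.9%). All members of complexes III and IV again lay above the median gene, a count that a change of scaling could hardly alter. Their medians of 0.22 and 0.29 were -0.30 and -0.23 with library size alone. The count was 16 of 18 for complex V, 35 of 43 for complex I, 2 of 4 for complex II and 4 of 8 for the assembly factors.

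No mitochondrial member passed in either LPS comparison, with or without the replicate block. The gene mt-Cytb, cytochrome b of complex III, had 2046 and 2206 CPM with IL-4 then LPS, 1608 and 1928 with LPS, 1722 and 1941 with IL-4, and 1598 and 1739 in controls. The gene mt-Nd1, a membrane subunit of complex I, had 1569.9 and 1517 CPM with IL-4 then LPS, 1209 and 1272 with LPS, 1318 and 1289 with IL-4, and 1246 and 1148 in controls. For both genes the libraries given IL-4 then LPS stood above the 6 others. The log2 fold change of mt-Nd1 was 0.24 ± 0.14 for IL-4 then LPS against IL-4 and 0.05 ± 0.14 for LPS against control (adjusted p = 0.212 and 0.795 in edgeR). With the effect averaged over both arms and the replicate block, mt-Co1 rose by 0.21 (adjusted p = 0.0481 in edgeR; 0.204 without the block). Over the 12 mitochondrial members the median was 0.23 after IL-4 and 0.05 without it.

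Both LPS effects were also averaged into a single estimate over the 8 libraries. On average 13 members rose and 2 fell, against 27.7% and 27.7% of all genes, and with the replicate block 25 rose and 5 fell, against 32.4% and 33%. The added falls were those of Sdhb, Ndufb10 and Ndufv3. The 13 that rose without the block were Cox7a2, Cox6c, Cox5a and Cox7c of complex IV, Uqcrfs1, Uqcrq and Uqcrb of complex III, Atp5k, Atp5b, Atp5f1 and Atp5a1 of complex V, and Ndufs4 and Ndufs3 of complex I. Their log2 fold changes ran from 0.24 ± 0.09 for Atp5a1 to 0.63 ± 0.10 for Cox7a2 (adjusted p = 0.0479 and 0.000917 in edgeR). With each library left out in turn, Cox7a2, Cox6c and Uqcrfs1 kept their call. Cox5a, Cox7c, Uqcrq, Atp5k, Atp5b, Ndufs4 and Ndufs3 each lost it in some of these fits. Uqcrb, Atp5f1 and Atp5a1 were not followed in every fit. They lost it without control library 1, where only Cox7a2, Cox6c and Uqcrfs1 were still called higher. Atp5b, the catalytic beta subunit of ATP synthase, had 0.39 ± 0.11 (adjusted p = 0.0213 in edgeR). All are relative to the median gene: with library size alone 0 members rose and 63 fell in edgeR, and of all 12234 genes 1856 rose and 6959 fell. Without control library 1 there were 3 rises among members and 2898 among all genes, and without control library 3 there were 20 and 3063, against 13 and 3387 with both.

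Those that fell on average were Atp5s (by 1.51, standard error 0.31, adjusted p = 0.00416 in edgeR) and Ndufaf7, which encodes a methyltransferase needed for complex I assembly in human cells. Ndufaf7 had 8.46 and 4.80 CPM with IL-4 then LPS, 7.28 and 5.53 with LPS, 9.19 and 9.61 with IL-4, and 10.4 and 10.6 in controls. All 4 libraries given LPS were below the 4 others, with a wide spread in the group given IL-4 then LPS. It fell by 0.61 on the log2 scale (standard error 0.21, adjusted p = 0.0401 in edgeR and 0.0528 in DESeq2). With each library left out in turn its log2 fold change ran from -0.84 to -0.43, and its call was lost in most of these fits.

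Among complex II genes, Sdhb, the iron-sulfur subunit, had 91.2 and 106 CPM with IL-4 then LPS, 75.04 and 87.6 with LPS, 109 and 118 with IL-4, and 90.96 and 103 in controls. Each LPS group was below the group without LPS beside it, without overlap. The average log2 fold change was -0.23 ± 0.10 (adjusted p = 0.0849 in edgeR, 0.0127 with the replicate block). That of Sdha, the flavoprotein that oxidises succinate, was -0.01, that of Sdhc 0.02 and that of Sdhd -0.01, none of which passed. Of the complex I subunits chosen whatever their values, the core subunits Ndufs1 and Ndufv1 had -0.11 and 0.05. The accessory subunit Ndufa1 had 0.23, and none of these passed. The accessory subunit Ndufs4 rose (0.37 ± 0.11, adjusted p = 0.021 in edgeR). With each library left out in turn Ndufs4 ran from 0.32 to 0.42, and its call was lost in most of these fits.

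**Figure D4:**
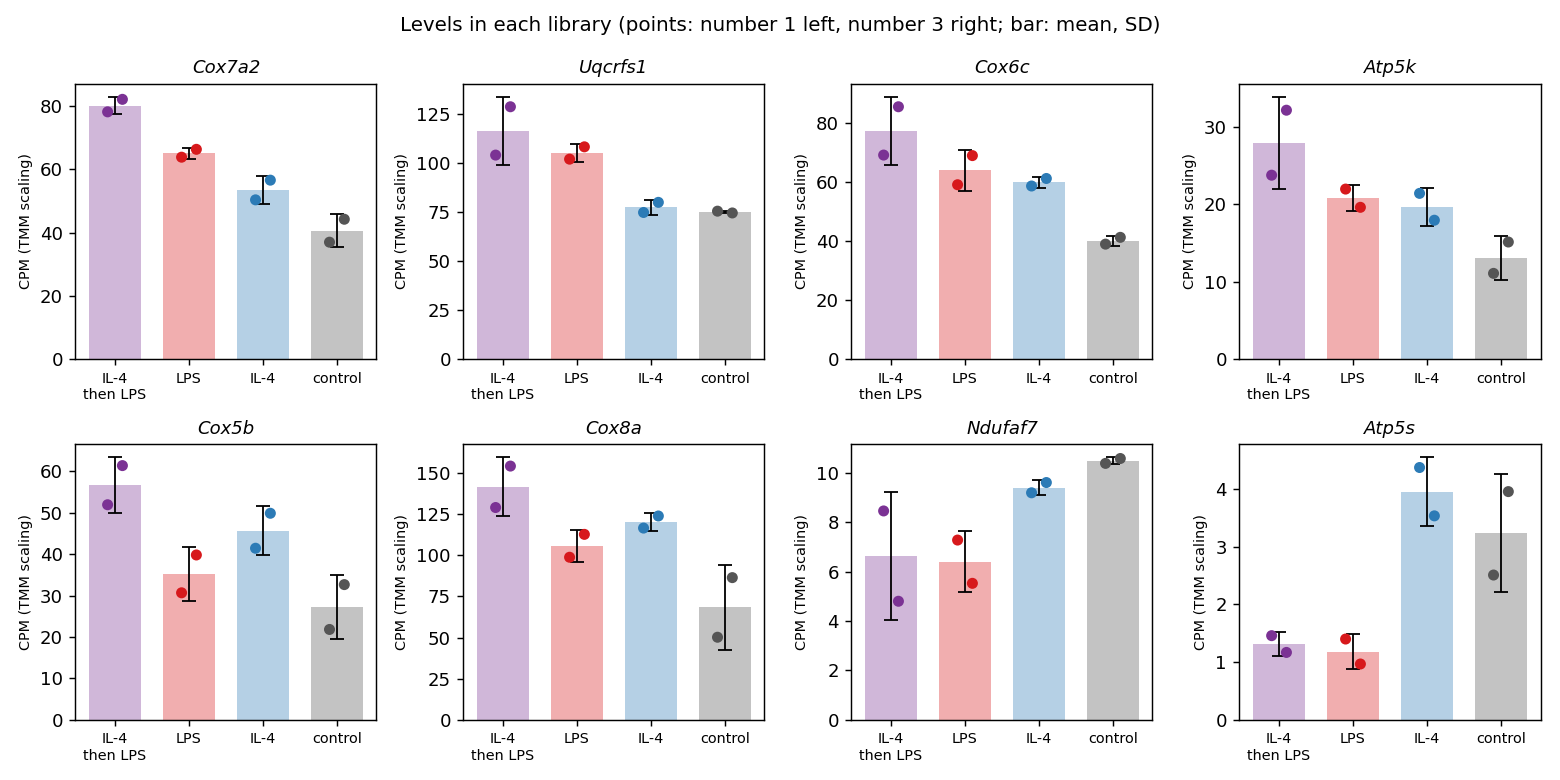
Levels (CPM, TMM scaling) of 8 members in each library as points, with bars at the group mean and SD (n = 2). Cox7a2, Uqcrfs1, Cox6c and Atp5k are higher in each LPS group than in the group without LPS it was compared with, although Uqcrfs1 is -0.12 on the log2 scale for LPS against control with library size alone, Ndufaf7 and Atp5s are lower with LPS, and the control means of Cox5b and Cox8a are the lowest of the 4.

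The third comparison asked what IL-4 did by itself. No member passed in edgeR, where 0.0572% of all genes rose and 0.00817% fell. At an unadjusted p under 0.05 there were 21 members higher and 0 lower, against 4.18% and 3.11% of all genes, and DESeq2 called 0 members and 0.899% of all genes. Of 97 members, 84 had a positive log2 fold change, as did 49.6% of all genes. IL-4 libraries lay wholly above the controls for 59 members, against 19.4% of all genes, and wholly below for 4, against 19.2%. The median was 0.28 for nuclear and 0.12 for mitochondrial members (all genes 0.00). By class it was 0.38 for complex IV, 0.36 for complex V, 0.28 for complex III, 0.25 for complex II, 0.22 for complex I and 0.03 for the assembly factors. Without control library 1 these medians were 0.17, 0.23, 0.08, 0.06, 0.12 and -0.17 in the same order, so that their order changed and that of the assembly factors turned negative.

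With the replicate block 7 members rose and 0 fell, against 1.5% and 0.858% of all genes. Cox8a had 117 and 124 CPM with IL-4, against 50.2 and 86.4 in controls. Cox5b, a zinc-binding subunit of complex IV, had 41.4 and 49.9 with IL-4, against 21.8 and 32.6 in controls. Uqcr11, a small subunit of complex III, had 23.3 and 30.4 with IL-4, against 10.99 and 18.6 in controls. The groups did not overlap, and control library 1 was the lowest of the 4 for each gene. The log2 fold changes with the block were 0.85 ± 0.16, 0.76 ± 0.12 and 0.88 ± 0.15 in that order (adjusted p = 0.0286, 0.018 and 0.0237 in edgeR with the block, and 0.461, 0.498 and 0.523 without it). The other genes were Cox6a1, Cox6c, Cox7b and Atp5b. Atp5b had 552 and 613 CPM with IL-4, against 362 and 452 in controls, without overlap (0.52 ± 0.10, adjusted p = 0.0384 in edgeR with the block, 0.514 without it).

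Control library 1 was below control library 3 over the nuclear members, with 4089 against 4822 CPM summed. Without control library 1 the nuclear median for IL-4 against control was 0.12, and without control library 3 it was 0.40. Libraries numbered 3 were above those numbered 1 by a median of 0.15 on the log2 scale over the members (-0.01 over all genes), with 6 of 97 members higher and 0 lower at adjusted p under 0.05 in edgeR, against 731 and 907 of 12234 genes. Among nuclear members gene length had a Spearman rho of -0.28 with the values of IL-4 against control and -0.31 with those of LPS against control. It was -0.09 for IL-4 then LPS against IL-4, -0.07 for IL-4 then LPS against LPS, and -0.32 for libraries numbered 3 over those numbered 1. Across all tested coding genes rho was -0.20 for IL-4 against control and -0.01 for LPS against control. For IL-4 the 36 nuclear members shorter than 1500 bases had a median of 0.33, against 0.16 for all 715 tested coding genes that short, and the 49 longer members had 0.24, against -0.01 for 10430 longer coding genes. For LPS against control the same 36 short members had a median of 0.25, against 0.09 for short coding genes, and the longer members had 0.10, against -0.05. The part of length in these results, and in the differences between complexes, was not tested further.

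The same question asked of cells given LPS uses the other libraries. For IL-4 then LPS against LPS no member passed in edgeR, where 0.049% of all genes rose and 0.0163% fell, and DESeq2 called 0 members and 0.973% of all genes. At an unadjusted p under 0.05, 15 members were higher and 0 lower, against 3.83% and 4.67% of all genes. With the replicate block 1 member rose and 0 fell, against 1.08% and 1.22%. That member was Cox5b, with 51.9 and 61.4 CPM with IL-4 then LPS, against 30.7 and 39.8 with LPS alone, without overlap (0.69 ± 0.13, adjusted p = 0.0283 in edgeR with the block, 0.46 without it). Of 97 members 90 were positive, as were 45.9% of all genes. Libraries given IL-4 then LPS lay wholly above the others for 60 members (16.6% of all genes) and wholly below for 1 (19.8%). The median was 0.27 for nuclear and 0.28 for mitochondrial members (all genes -0.03).

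Those IL-4 comparisons share no library. Over the 97 members 82 were positive in both, as were 30.2% of all genes, and 5 were negative in both. Across members the values of both correlated with a Pearson r of 0.51 and a Spearman rho of 0.58, against 0.42 and 0.38 across all genes. Genes are not independent replicates, and libraries of the same number may share a source. Cox7a2l was negative in both: it had 152 and 154 CPM with IL-4 then LPS, against 167 and 174 with LPS, and 146 and 144 with IL-4, against 168 and 159.9 in controls. The groups did not overlap in either comparison, and neither passed (log2 fold change -0.15 and -0.18). The assembly factor Ndufaf6 was negative in both as well, at -0.31 and -0.39.

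**Figure D5:**
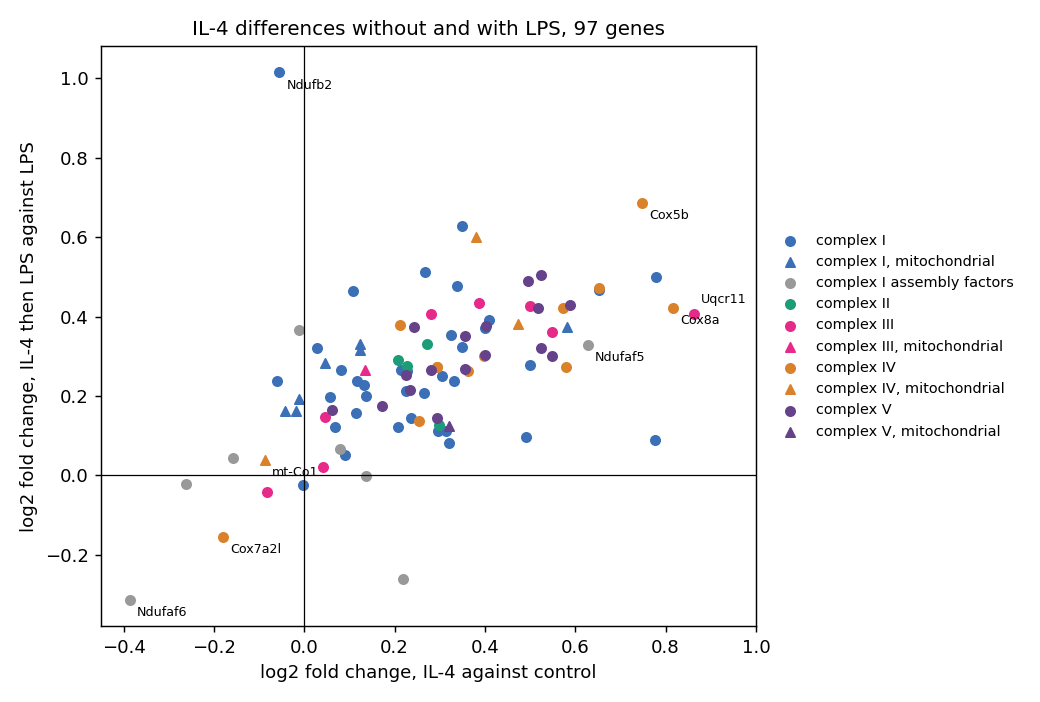
Log2 fold change of IL-4 then LPS against LPS (vertical) and of IL-4 against control (horizontal) for the 97 tested members, coloured by complex, with triangles for mitochondrially encoded genes. Most points, 82 of 97, lie in the upper right, and Cox7a2l and Ndufaf6 are among the 5 in the lower left.

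Whether the response to LPS differed after IL-4 was tested as the difference between both LPS effects. In edgeR 0 members passed in either direction, as did 0% of all genes, and with the replicate block 0 members passed, against 0% of all genes higher and 0.00817% lower. DESeq2 called 0 members and 0.0409% of all genes. At an unadjusted p under 0.05 there was 1 member, Ndufb2, against 2.63% of all genes. Ndufb2 had 5.98 and 5.58 CPM with IL-4 then LPS, 2.94 and 2.76 with LPS, 5.53 and 3.72 with IL-4, and 4.67 and 4.95 in controls, so that only the LPS group was low. The median difference was -0.02 over nuclear and 0.19 over mitochondrial members (all genes -0.03). The nuclear value turned on the controls. Without control library 1 it was 0.17, with 74 of 85 nuclear members positive (all genes 0.04). Without control library 3 it was -0.10, with 26 of 85 positive (all genes 0.01).

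The other genes of the pathway were counted as lists in LPS against control. Cycs, which encodes cytochrome c, had 110.4 and 107 CPM with IL-4 then LPS, against 45.97 and 39.5 with IL-4, and 98.8 and 111 with LPS, against 32.97 and 37.1 in controls. It rose in both, without overlap, by 1.35 ± 0.14 and 1.58 ± 0.14 on the log2 scale (adjusted p = 0.000199 and 9.22e-05 in edgeR), more than any member did. Atpif1, the inhibitor of ATP synthase, did not pass (0.37 ± 0.20, adjusted p = 0.173 in edgeR, 0.0471 with the replicate block). Of 24 tested assembly factors of complexes II to IV, 5 rose and 3 fell, beside the 21.8% and 18.6% of all genes given above. Sco1, which delivers copper to complex IV, rose by 2.13, Cox18 by 1.74, Coa5 by 1.69, and Cox15 and Cox10, which make heme a, by 1.12 and 0.68. Sdhaf1, an assembly factor of complex II, fell by 2.07, Bcs1l, which inserts the Rieske protein, by 1.14, and Uqcc3 by 0.96. Reads were few: Sdhaf1 had 3 and 6 in LPS libraries, against 33 and 25 in controls. Bcs1l had 26 and 14, against 66 and 67. Of 9 further assembly factors of complexes I and V, Tmem70 and Foxred1 rose (0.72 and 0.57) and Tmem126b fell (-1.33).

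Of 13 tested Pdss and Coq genes, listed for coenzyme Q, 2 rose and 3 fell (all genes 21.8% and 18.6%). Among them were Pdss1, which makes the side chain, at 1.93 ± 0.36 and Coq10a at -1.74 ± 0.21. Of 14 tested genes for mitochondrial DNA, 2 rose and 4 fell, against the same shares. Tfam, which packages mitochondrial DNA and starts its transcription, rose by 0.92 and the elongation factor Tefm by 1.35, while the helicase Twnk fell by 2.30, the polymerase Polg by 0.79, the nuclease Mgme1 by 1.05 and the RNA-binding protein Lrpprc by 0.41. Twnk had only 20 and 8 reads in LPS libraries, against 115 and 94 in controls. Of 10 tested regulators, Hif1a, Gabpb1, Esrra and Gabpa rose (1.55, 1.29, 0.97 and 0.73) and Pparg and Ppard fell (-2.25 and -1.14). Acod1, which makes itaconate, an inhibitor of complex II, had 9184 and 10319 CPM with LPS, against 79.5 and 320.4 in controls, and rose by 5.61 ± 1.04 (adjusted p = 0.0039 in edgeR). For IL-4 then LPS against IL-4, 20.7% of all genes rose and 18.6% fell. Beside these, the numbers that rose and fell were 4 and 1 for the assembly factors of complexes II to IV. They were 2 and 2 for those of complexes I and V, and 1 and 3 for the Pdss and Coq genes. For mitochondrial DNA they were 2 and 3, and for the regulators 4 and 2. In both IL-4 comparisons 0 genes of these lists passed in edgeR, with or without the replicate block.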

How the data were processed

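RNA-seq read counts per gene, as deposited by the authors in a single table, were used for 8 libraries. The tools named, per the submitters' processing notes, were HTSeq, HISAT2 and StringTie, and the build was mm10; how reads that match several places were counted, and whether strand was used, are not given in the sources used here. Another 6 count columns of the table could not be tied to a sample and were not used. Total counts were 7924932 to 9431852 per library. Counts were scaled by TMM, filtered with filterByExpr and tested with edgeR 4.0.16 (quasi-likelihood; R 4.3.3, limma 3.58.1) in a model of the 4 groups over all 8 libraries, with Benjamini-Hochberg adjustment over 12234 genes and calls at adjusted p under 0.05; DESeq2 1.42.0 was an alternative. The fit was tested on simulated counts. Standard errors are the log2 fold change over the root of F. Members and lists were chosen with earlier results of these data known. Named members are those called in a comparison with or without the replicate block, a set of core subunits and all mitochondrial genes whatever their values, and isoform sets; Cox7a2l, Ndufaf6 and Ndufb2 in the IL-4 comparisons were named after their values were seen. Deviations of same-numbered libraries from their group means correlated by 0.37 to 0.59 over all pairs of groups across all genes tested. Across the members they correlated by 0.01 to 0.40. By the all-gene values the numbers may pair the libraries. The main fit held the groups alone, so its calls take no account of the number, which entered only as the replicate block. Libraries numbered 1 had 2936 to 4465 reads of Xist and 0 of Y-linked genes, and those numbered 3 had 0 of Xist and 1246 to 1546 of Y-linked genes, so number and sex cannot be told apart. Sequences came from RefSeq (GRCm38.p6) and GENCODE M21 (mm10), in which 101 of 107 members had the same start and end as in the table. Alternatives were other scalings, no filter, DESeq2, the replicate block, only the groups compared, each library left out in turn, and, added after seeing the data, only members with under 10% shared 50-mers.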

Additional observations from a re-analysis of the deposited data

How the results depend on the processing

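The sign of the LPS values depended on the scaling, which by construction moves all genes together. With upper-quartile factors 0, 2 and 3 members rose and 4, 7 and 13 fell for IL-4 then LPS against IL-4, LPS against control and the average LPS effect, where all genes had 1924, 2044 and 2460 rises and 3426, 3542 and 4897 falls. With library size alone 0 rose in each (edgeR) and 32, 54 and 63 fell, where all genes had 1546, 1547 and 1856 rises and 5321, 5745 and 6959 falls. Nuclear medians in that order were -0.12, -0.11, -0.091 with upper-quartile factors and -0.40, -0.44, -0.40 with library size alone, and mitochondrial medians -0.023, -0.22, -0.12 and -0.30, -0.56, -0.42. Single values that changed sign with library size alone were, for IL-4 then LPS against IL-4, Atp5b -0.18, Atp5f1 -0.21, Cox5a -0.054, Cox6c -0.16, Cox7c -0.20, Ndufs3 -0.097, Uqcrc1 -0.24, Uqcrq -0.081; for LPS against control, Atp5b -0.16, Atp5e -0.12, Cox4i1 -0.22, Cox5a -0.11, Cox6a1 -0.085, Cox7c -0.18, Ndufs4 -0.21, Uqcr11 -0.13, Uqcrfs1 -0.12; for the average LPS effect, Atp5b -0.17, Atp5e -0.19, Cox4i1 -0.24, Cox5a -0.083, Cox5b -0.22, Cox6a1 -0.14, Cox6c -0.043, Cox7c -0.19, Cox8a -0.13, Ndufs3 -0.21, Ndufs4 -0.19, Uqcrfs1 -0.026, Uqcrq -0.025. With the replicate block the counts higher were 10, 18 and 25 in the same order, 7 for IL-4 against control and 1 for IL-4 then LPS against LPS, with 3 lower for LPS against control and 5 on average. DESeq2 called 0 members lower for LPS against control and 1 on average, where all genes had 2133 and 3137 falls. The edgeR fit of LPS and control libraries alone called 0 members lower, where all genes had 1975 falls. Without the filter 4 members rose for IL-4 against control and 1 for IL-4 then LPS against LPS, where all genes had 198 and 172 rises. The medians without it were 0.083 for nuclear members (IL-4 then LPS against IL-4) and 0.0014 for mitochondrial members (LPS against control). The cause was not tested. Leaving out each library in turn gave these ranges, while the counts of all genes called with LPS also moved. For IL-4 then LPS against IL-4, 0 to 3 members higher and 0 to 1 lower, with medians of 0.086 to 0.19 (nuclear) and 0.19 to 0.29 (mitochondrial). For LPS against control, 0 to 7 members higher and 0 to 1 lower, with medians of -0.032 to 0.25 (nuclear) and -0.0013 to 0.18 (mitochondrial). For the average LPS effect, 3 to 20 members higher and 1 to 2 lower, with medians of 0.053 to 0.19 (nuclear) and 0.11 to 0.18 (mitochondrial). For IL-4 against control, 0 members higher and 0 lower, with medians of 0.12 to 0.40 (nuclear) and 0.0094 to 0.12 (mitochondrial). For IL-4 then LPS against LPS, 0 members higher and 0 lower, with medians of 0.21 to 0.34 (nuclear) and 0.16 to 0.30 (mitochondrial). For the difference between LPS effects, 0 members higher and 0 lower, with medians of -0.10 to 0.17 (nuclear) and 0.11 to 0.30 (mitochondrial). Counting only members with under 10% shared 50-mers moved no count by over 1.5 times and reversed no median. The mitochondrial median for IL-4 against control was 0.047 in place of 0.12. Of the average rises without the block, that limit left out Uqcrb (25.5% shared), Cox7c (22.1%), Ndufs3 (17.9%) and Atp5f1 (14.3%). Ndufs3 was also among the rises for IL-4 then LPS against IL-4. The sparse counts of Atp5s and the 2 libraries per group limit what can be called.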
